A study of Mus musculus with 4 samples.

Results

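Cadherins, integrins and neuronal adhesion molecules were examined in RNA from segments of mouse corpus callosum and cortex, taken at postnatal day 15. The genes were chosen by symbol: cadherins (Cdh, without the endothelial Cdh5), protocadherins (Pcdh), contactins and their relatives (Cntn, Cntnap), neurexins (Nrxn), neuroligins (Nlgn), Lrrtm, the immunoglobulin genes Ncam, Nrcam, L1cam, Chl1, Cadm, Igsf and Nectin, integrins (Itga, Itgb), teneurins (Tenm), Flrt, Slitrk, Lrfn and Celsr. A mean level over the 4 samples of at least 0.5 was also required. 67 genes met both conditions, of 5282 in the deposited table. Itga11, with a mean level of 0.24, has a fitting symbol and lay under the floor, while the member nearest above it was Igsf5 at 0.57. The symbols match 184 protein-coding genes of the GENCODE M21 annotation of GRCm38. 66 of the members are among these, and Pcdhgb8 is annotated as a polymorphic pseudogene. The other genes of these families had no row above the floor and were not analysed here.

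The mutant group held 2 Pdgfra-creER;SmoM2 samples and the control group 2 wild type (WT) samples, described by the submitters as littermates. All received tamoxifen on postnatal days 5 to 7. SmoM2 encodes an always-active Smoothened, which passes the hedgehog signal across the membrane. Pdgfra-creER is a tamoxifen-inducible Cre recombinase driven by Pdgfra, a gene of oligodendrocyte precursors and of fibroblasts, which directs recombination to those cells. The tissue held both neurons and glia, and fewer cells of a type cannot be told apart from less RNA per cell. Whether each sample is 1 animal or a pool, and whether WT mice carried the Cre transgene, is not stated. p-values therefore measure the spread between these samples, which may be technical.

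Every gene in the table has an unadjusted p of at most 0.05 for SmoM2 against WT, because the authors selected it so, and each adhesion gene named here thus differed by that selection. The submitters' text also names a log2 fold change of at least 1, which most listed genes do not reach. The value per sample is an expression level whose values point to scaling by both transcript length and sequencing depth. The sources do not say whether TPM or FPKM was used, and depth per sample is unknown. "Rose" and "fell" are used of genes whose adjusted p is 0.05 or less by the authors' deposited table. Log2 fold changes are those of that table, and log2 differences with a standard error (SE) are from limma on log2(level + 1), a scale that understates the change of low genes.

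Adhesion molecules hold cells to each other and to the matrix. Cadherins bind their own kind on the neighbouring cell in the presence of calcium and link to actin through catenins, protocadherins give neurons a surface identity, and immunoglobulin adhesion molecules guide axons and bind them in bundles. At synapses, presynaptic neurexins pair with postsynaptic neuroligins and leucine-rich repeat proteins, while integrins bind laminins, fibronectin and other matrix proteins. In white matter, contactins and related proteins arrange the contact between axon and myelin around the node of Ranvier.

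25 of the 67 adhesion genes rose in SmoM2, 6 fell and 36 did not pass. Among the 5041 listed genes above the same floor, 21.8% rose and 16.5% fell, so that 38.3% were called in either direction. Each count by family or list below is to be read beside these shares. Counts of genes that were higher, passing or not, are to be read beside 53%, the share of the 5041 with a positive fold change. By the authors' deposited table the 67 genes had a median log2 fold change of 0.38 and a range from -1.37 to 2.48, against a median of 0.23 over the 5041. In 50 of the 67 both SmoM2 samples lay above both WT samples, in 7 both lay below, and in 10 the groups overlapped. Over the 5041 genes these shares were 49.6% above and 35.2% below. All 25 genes that rose were without overlap, while 3 of the 6 that fell, Cntn4, Cadm2 and Flrt2, overlapped. Over the 5041 genes, 1052 of the 1099 that rose and 710 of the 834 that fell were likewise without overlap. The summed level of the 67 genes was 2716 and 2705 in SmoM2, against 1928 and 2149 in WT.

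**Figure D1:**
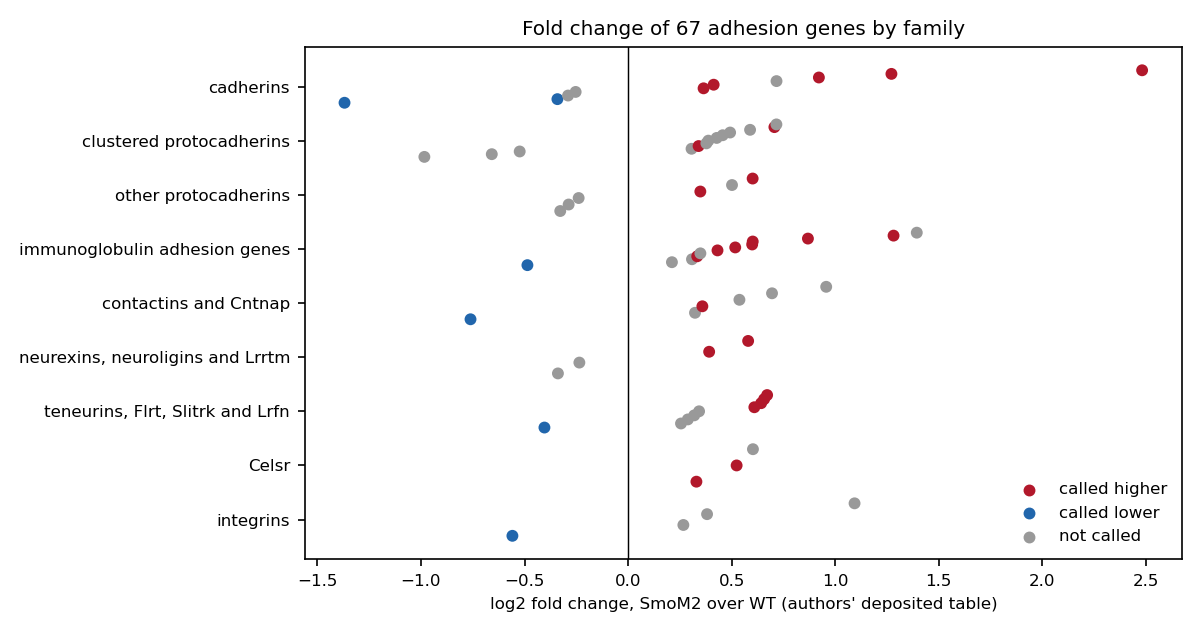
Log2 fold change of SmoM2 over WT in the authors' deposited table (x axis) for each of the 67 adhesion genes, by family (rows). Red points rose, blue points fell and grey points did not pass. Of the 67 points 51 lie above 0, or 76.1%, against 53% of the 5041 listed genes above the floor.

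The genes that rose and fell differed in base composition. The longest protein-coding transcript of the 25 genes that rose had between 49.9% and 65.6% G+C, with a median of 58.4%. That of the 6 that fell had between 36.9% and 44.9%, with a median of 41.0%, so the ranges did not overlap. The same order held over the 5041 listed genes, where the median was 57.6% for those that rose and 42.9% for those that fell. Of the adhesion genes, 14 had under 45% G+C, and 2 of these, Tenm1 and Cntnap5a, had a positive fold change, or 14.3% against 6.25% of all listed genes in that range. From 45% to 55% G+C, 24 of 28 adhesion genes were higher, 85.7% against 51.3% of all listed genes. At 55% and above all 25 were higher, against 95.3%. Spearman's rho between transcript G+C and the authors' log2 fold change was 0.51 over the 67 adhesion genes and 0.63 over the 4641 listed genes with a coding transcript, as a description across genes that share the same 4 libraries. Genomic span differed as well, with a median of 33.8 kb for the adhesion genes that rose and 123 kb for those that fell, against 17.6 kb and 32.5 kb over all listed genes. What base composition has to do with any fold change below was not tested.

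**Figure D2:**
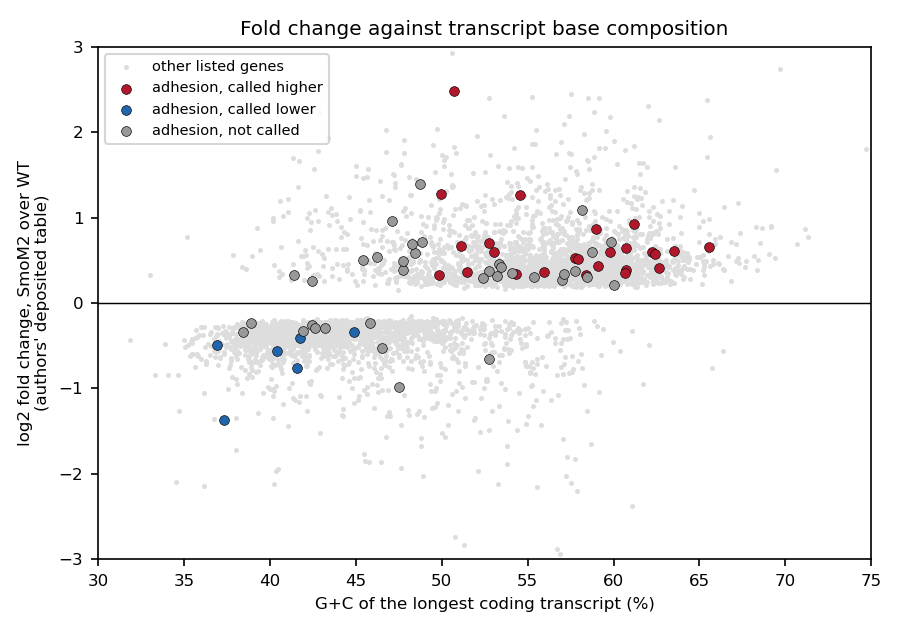
G+C of the longest protein-coding transcript (x axis, %) against the authors' log2 fold change of SmoM2 over WT (y axis; genes beyond 3 in either direction are not drawn). Light grey points are other listed genes and outlined points the 67 adhesion genes; the 6 blue genes that fell lie at 44.9% G+C or less and the 25 red ones that rose at 49.9% or more.

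Promoter windows from RefSeq (GRCm38.p6), from 250 bases before to 50 after the annotated start, were at hand for 37 of the 67 genes. 4 are shown, for 2 paralogs that rose together, Lrfn3 and Lrfn4, and for 2 genes that fell, Itgb8 and Flrt2; all 4 were chosen after their values were seen. Capitals mark CG dinucleotides, and each window reads 5′ to 3′ on the gene's strand. The windows are chr7:30362723-30363022 (minus strand) for Lrfn3, chr19:4615618-4615917 (minus) for Lrfn4, chr12:119238227-119238526 (minus) for Itgb8 and chr12:95691976-95692275 (plus) for Flrt2.
Lrfn3: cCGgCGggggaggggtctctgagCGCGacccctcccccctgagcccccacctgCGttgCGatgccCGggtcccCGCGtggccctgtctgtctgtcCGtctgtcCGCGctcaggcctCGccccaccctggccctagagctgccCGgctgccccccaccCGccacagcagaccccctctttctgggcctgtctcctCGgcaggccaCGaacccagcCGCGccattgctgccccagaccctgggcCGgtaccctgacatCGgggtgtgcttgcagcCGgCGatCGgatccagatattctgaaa
Lrfn4: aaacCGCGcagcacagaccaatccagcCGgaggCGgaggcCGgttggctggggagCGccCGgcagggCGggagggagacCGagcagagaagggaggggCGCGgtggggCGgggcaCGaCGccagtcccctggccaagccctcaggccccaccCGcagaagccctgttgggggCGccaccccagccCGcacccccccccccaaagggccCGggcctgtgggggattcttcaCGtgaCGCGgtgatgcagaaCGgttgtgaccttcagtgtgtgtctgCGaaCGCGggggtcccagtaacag
Itgb8: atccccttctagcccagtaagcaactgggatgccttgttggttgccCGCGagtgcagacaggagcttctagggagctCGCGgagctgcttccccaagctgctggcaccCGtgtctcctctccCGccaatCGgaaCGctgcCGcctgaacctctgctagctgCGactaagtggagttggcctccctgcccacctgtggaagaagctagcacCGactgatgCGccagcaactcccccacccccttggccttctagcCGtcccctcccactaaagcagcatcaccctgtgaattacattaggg
Flrt2: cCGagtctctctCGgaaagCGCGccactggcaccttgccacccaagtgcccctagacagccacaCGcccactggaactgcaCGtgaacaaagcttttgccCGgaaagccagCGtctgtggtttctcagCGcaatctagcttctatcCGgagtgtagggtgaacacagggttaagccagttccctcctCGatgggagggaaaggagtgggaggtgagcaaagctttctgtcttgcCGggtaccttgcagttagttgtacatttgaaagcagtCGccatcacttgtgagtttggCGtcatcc
The windows hold 24 CG dinucleotides in Lrfn3 and 25 in Lrfn4, against 13 in Itgb8 and 14 in Flrt2. Over the adhesion genes with a window the median was 25 CG for the 15 that rose, 13.5 for the 4 that fell and 12.5 for the 18 that did not pass. The genes that fell thus did not stand below those that did not pass, and over all listed genes the medians were 20, 20 and 21. The hedgehog effector motif GACCACCCA, sought on both strands, was in none of the 45 windows of the 37 adhesion genes and in 0.253% of all 32851 windows. The GC box GGGCGG, on either strand, was in 22 of the 45 windows of adhesion genes, or 48.9%, and in 35.7% of all windows. By gene it was in 10 of the 15 that rose, 1 of the 4 that fell and 9 of the 18 that did not pass; a match is a run of letters and no evidence of binding.

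Among the cadherins, the calcium-dependent adhesion molecules that join like cells, 5 of 10 rose, 2 fell and 3 did not pass. Cdh4, the R-cadherin gene (chromosome 2, 179442431 to 179899373, GRCm38), had levels of 13.3 and 13.1 in SmoM2, against 4.94 and 5.58 in WT. The 2 SmoM2 samples lay close together and well above both WT samples. Its log2 difference was 1.19 ± 0.15 (SE, limma, n = 2 each), and its adjusted p was 2.68e-21 in the authors' deposited table. Cdh1, the epithelial E-cadherin gene, had 1.5 and 1.18 in SmoM2, against 0.19 and 0.27 in WT. Its log2 fold change, 2.48 by the authors' deposited table (adjusted p = 4.67e-08), was the highest of the 67. The WT mean of Cdh1, 0.23, lay under the floor of 0.5, so it became a member only through its SmoM2 levels. Cdh1 is known from the arachnoid barrier cells of the meninges. Of 12 leptomeningeal fibroblast markers, 11 were listed and each of them rose. Ptgds alone had 1641 and 1728 in SmoM2 and 933 and 313 in WT, while the other 10 summed to 253 and 215 in SmoM2 and 119 and 112 in WT; their part in the rise of Cdh1 was not tested.

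Cdh24, a type II cadherin gene, had 7.87 and 7.74 in SmoM2 and 3.22 and 4.68 in WT, which limma put at 0.85 ± 0.20 on the log2 scale (SE). Cdh13, the GPI-anchored T-cadherin gene, was the most abundant of the family, with 94.4 and 106.8 in SmoM2 and 74.1 and 80.0 in WT, and Cdh22 had 22.2 and 20.7 in SmoM2 and 14.1 and 16.6 in WT. Neither gene's groups overlapped. The fold changes of Cdh13 and Cdh22 in the authors' deposited table, 0.36 and 0.41 on the log2 scale, were smaller than those of Cdh4 and Cdh24 at 1.27 and 0.92. The muscle cadherin gene Cdh15 had a log2 fold change of 0.72 without passing (adjusted p = 0.198 in the authors' deposited table).

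The 4 other cadherins were lower in SmoM2. All are type II genes, as are Cdh22 and Cdh24, which rose. Cdh19, known from the Schwann cell and other glial lineages, had 0.67 and 0.78 in SmoM2 and 0.82 and 1.84 in WT, and fell. Cdh11, a cadherin of mesenchymal cells and neurons, had 26.9 and 22.9 in SmoM2 and 27.1 and 31.3 in WT, and fell, its adjusted p being 0.049 in the authors' deposited table. The groups of both genes stood apart by a narrow gap. Cdh8 and Cdh10, cadherins of cortical neurons, had log2 fold changes of -0.25 and -0.29 and did not pass. The limma log2 difference of Cdh19 was -0.40 with all samples, -0.08 without WT replicate 2 and -0.72 without WT replicate 1. That of Cdh11 was -0.22, and became -0.34 without SmoM2 replicate 1, -0.11 without SmoM2 replicate 2 and -0.12 without WT replicate 2.

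**Figure D3:**
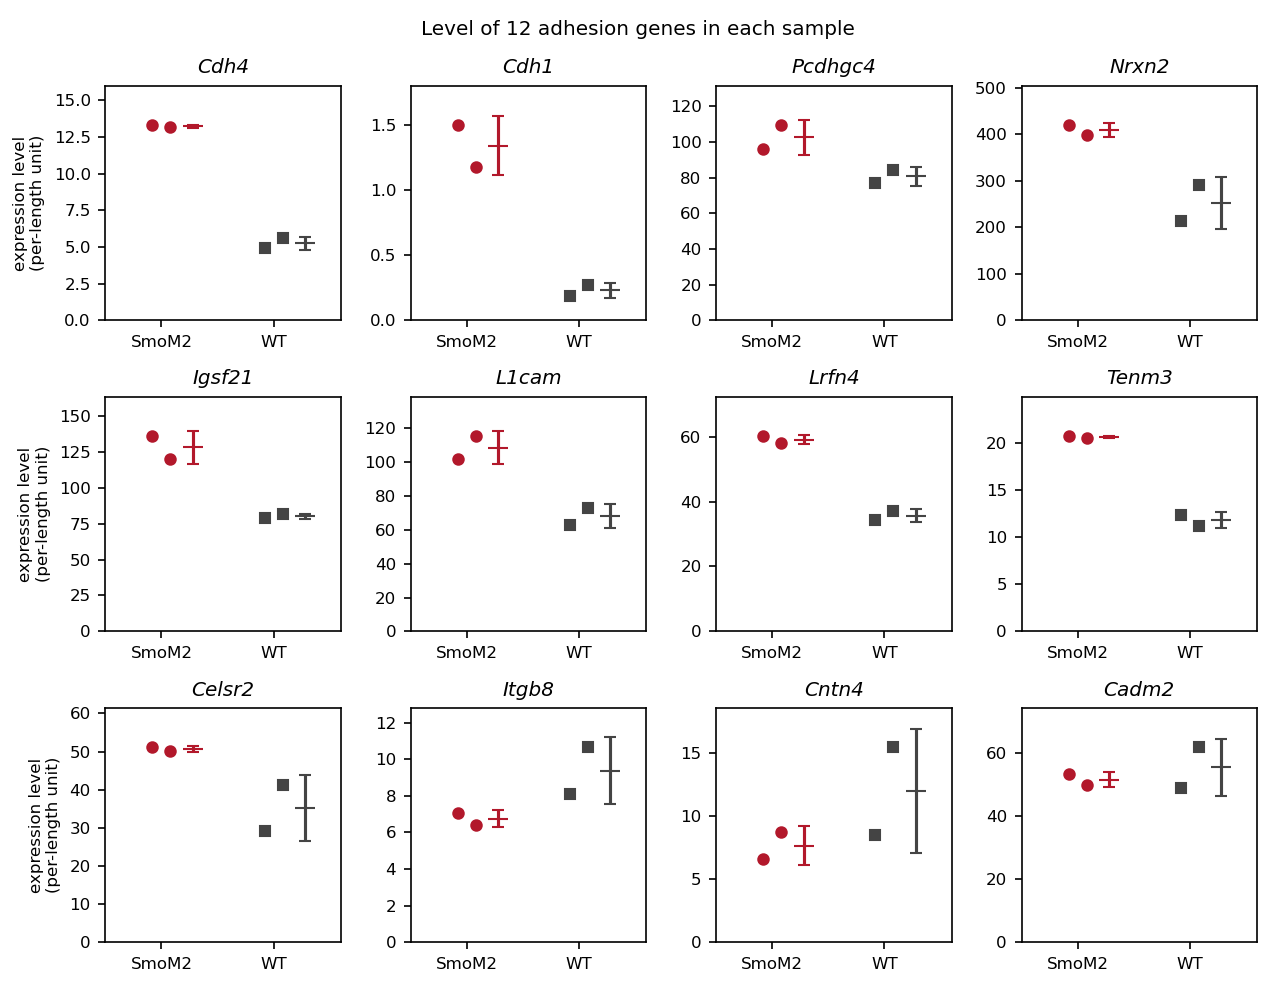
Expression level (y axis, starting at 0) of 12 adhesion genes in each SmoM2 sample (red circles) and WT sample (grey squares), with the mean and SD of each group beside them (n = 2 each). The groups are apart in 10 panels, and overlap for Cntn4 and Cadm2.

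Clustered protocadherins are encoded side by side on chromosome 18, where each gene of the alpha and gamma groups joins its own first exon to a shared set of last exons. The 13 members lie between 36973802 and 37841873 (GRCm38), and the 3 alpha genes all end at 37187657, the 7 gamma genes at 37841870 or 37841873. Reads from shared exons can be split among them by the counting, so separate values within the alpha or gamma group are uncertain. 2 of the 13 rose, or 15.4% where 21.8% of all listed genes did, and 11 did not pass. Pcdhga9 had 7.25 and 7.76 in SmoM2 and 4.54 and 4.13 in WT, which limma put at 0.67 ± 0.16 on the log2 scale (SE; adjusted p = 0.000943 in the authors' deposited table). Pcdhgc4 was the most abundant, at 95.7 and 109 in SmoM2 and 77.0 and 84.5 in WT (adjusted p = 0.0368). Pcdhgc3, of like abundance, had 94.6 and 93.9 in SmoM2 and 71.7 and 73.5 in WT, and its adjusted p, 0.0644 by the authors' deposited table, missed the threshold although its groups were further apart for their spread. Pcdhga2 missed it by less, at 0.0552. Pcdhgc3 and Pcdhgc4 stood far above the other 11, whose mean levels were all below 8.

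All 3 beta genes, which are single-exon and share no exon, were higher without passing, with log2 fold changes of 0.49 for Pcdhb5, 0.59 for Pcdhb10 and 0.72 for Pcdhb2. In the gamma group Pcdhga4 and Pcdhgb5 were higher by 0.38 and 0.43, and Pcdhgb8 lower by a log2 fold change of -0.66 with overlapping groups. The alpha group was divided. Pcdha7 had a log2 fold change of 0.39, while Pcdha8 and Pcdhac1 had -0.98 and -0.52. None of the 3 passed, and Pcdhac1 came nearest at 0.058 for its adjusted p in the authors' deposited table. Pcdha8 had 0.48 and 0.40 in SmoM2 and 0.82 and 0.85 in WT, levels near the floor. Its SmoM2 mean, 0.44, lay under the floor of 0.5, so it became a member only through its WT levels.

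Of the 6 other protocadherins, which stand alone in the genome, 2 rose and 4 did not pass. Pcdh8, also known as arcadlin, is induced by neuronal activity, and had 28.7 and 33.6 in SmoM2 and 17.5 and 21.5 in WT. Pcdh1 was the most abundant, with 80.5 and 91.9 in SmoM2 and 59.7 and 66.5 in WT. Both were higher in each SmoM2 sample than in either WT sample, with log2 differences of 0.65 ± 0.15 for Pcdh8 and 0.44 ± 0.11 for Pcdh1 (SE, limma). Pcdh18 was higher and Pcdh7, Pcdh9 and Pcdh20 lower, and these 4 did not pass. The groups of Pcdh7, Pcdh9 and Pcdh20 overlapped, and the limma log2 difference changed sign for Pcdh7 without WT replicate 2, for Pcdh9 without SmoM2 replicate 2 and for Pcdh20 without SmoM2 replicate 1.

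Among 12 immunoglobulin adhesion genes, 7 rose, 1 fell and 4 did not pass. L1cam, which drives axon growth and bundling, had 102 and 115 in SmoM2 and 63.1 and 73.2 in WT. Ncam1, the neural cell adhesion molecule that carries polysialic acid in young neurons, had 111 and 109 in SmoM2 and 75.9 and 85.2 in WT. Both genes of axons were thus higher in each SmoM2 sample, with log2 differences of 0.67 ± 0.12 for L1cam and 0.45 ± 0.10 for Ncam1 (SE, limma). Nectin1 and Nectin2, which start cell junctions together with afadin, rose, at 26.0 and 23.2 in SmoM2 against 15.7 and 19.1 in WT for Nectin1, and at 19.8 and 20.3 in SmoM2 against 12.01 and 13.5 in WT for Nectin2.

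The 6 Igsf genes were all higher, and Igsf1, Igsf9 and Igsf21 rose. Igsf21, a synaptic protein that binds neurexin at inhibitory synapses, had 136 and 120 in SmoM2 and 78.9 and 81.3 in WT, which limma put at 0.67 ± 0.10 on the log2 scale (SE; adjusted p = 4.55e-06 in the authors' deposited table). Igsf1, an X-linked gene known from the pituitary, had 10.9 and 14.7 in SmoM2 and 6.19 and 4.28 in WT. Igsf9, a gene of dendrites and synapses, had 3.48 and 3.49 in SmoM2 and 1.35 and 1.79 in WT. In all 3 the lowest SmoM2 sample lay clear of the highest WT sample. Igsf3, Igsf5 and Igsf8 did not pass. The WT mean of Igsf5, 0.29, lay under the floor of 0.5. Igsf5 thus became a member only through its SmoM2 levels, and its direction is no separate result.

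The Cadm genes, which encode the synaptic cell adhesion molecules, had their 2 listed members on opposite sides. Cadm4, a gene of glia and of axon to glia contact, had the highest mean level of the 67 at 379, with 429 and 403 in SmoM2 and 347 and 336 in WT. Its groups were apart, yet its log2 fold change of 0.21 did not pass (adjusted p = 0.318 in the authors' deposited table). Cadm2, a neuronal member, fell by the authors' deposited table, where its log2 fold change is -0.49 (adjusted p = 0.000168). Its levels were 53.3 and 49.8 in SmoM2 and 49.0 and 61.9 in WT. The groups thus overlapped and WT replicate 1 lay below both SmoM2 samples. The limma log2 difference was -0.09 ± 0.13 (SE), far from the authors' value, and was -0.14 without SmoM2 replicate 1, -0.05 without SmoM2 replicate 2, -0.26 without WT replicate 1 and 0.07 without WT replicate 2.

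The contactins are GPI-anchored immunoglobulin proteins of axons, and Cntnap proteins are their partners at the membrane. Of 6 members, 1 rose, 1 fell and 4 did not pass. Cntn2, which axons and oligodendrocytes place beside the paranode, had 14.5 and 15.2 in SmoM2 and 9.95 and 12.6 in WT. Its log2 difference was 0.38 ± 0.16 (SE, limma), and 0.22 without WT replicate 1. Cntn4, an axon guidance gene of sensory pathways, fell, with 6.61 and 8.77 in SmoM2 and 8.52 and 15.5 in WT. The groups overlapped, and WT replicate 2 stood above the other 3 samples. The limma log2 difference of Cntn4 was -0.54, and became -0.36 without SmoM2 replicate 1, -0.94 without WT replicate 1 and -0.14 without WT replicate 2. Cntn5 missed the threshold in the authors' deposited table, at a log2 fold change of 0.69 (adjusted p = 0.0622). The paralogs Cntnap5a, Cntnap5b and Cntnap5c had 0.32, 0.54 and 0.96 without passing. The WT mean of Cntnap5c, 0.47, lay under the floor of 0.5, so it became a member only through its SmoM2 levels.

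Mature oligodendrocyte markers, whose cells wrap the axons that carry these proteins, fell in all 12 of 12 genes, to summed levels of 3058 and 3449 in SmoM2 against 6400 and 6014 in WT. In 1 of the 12, Aspa, the groups overlapped. Oligodendrocyte precursor markers had 7 of 12 genes with a row, of which 3 rose, with sums of 631 and 606 in SmoM2 and 476 and 458 in WT. Cspg5 alone made up 415 and 407 of the SmoM2 sums and 317 and 306 of the WT sums. Pdgfra, Olig1, Sox10, Gpr17 and Lhfpl3 had no row. Pan-neuronal markers had 5 of 8 genes with a row, of which Tubb3 and Gap43 rose and Snap25 and Syt1 fell, and summed to 4970 and 4921 in SmoM2 and 4129 and 4588 in WT. Choroid plexus markers had 8 of 10 genes with a row, of which 6 fell, 1 of these with overlapping groups. Their sums set the SmoM2 samples apart, at 153 and 727 in SmoM2 and 1368 and 1403 in WT. Of 5 listed astrocyte markers Gfap and Aqp4 rose and Slc1a2 fell, and of 5 listed excitatory neuron markers Cux2 rose and Neurod6 fell. Of 6 listed microglial markers C1qb and C1qc rose, P2ry12 fell with overlapping groups and 3 did not pass. The part of these cell types in the values of contactins, L1cam or the synaptic genes was not tested.

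Synaptic adhesion genes had 2 members that rose and 2 that did not pass among neurexins, neuroligins and Lrrtm. Nrxn2, a presynaptic organizer (chromosome 19, 6418731 to 6544169, GRCm38), had 420 and 398 in SmoM2 and 213 and 291 in WT. Nlgn2, the neuroligin of inhibitory synapses, had 147 and 151 in SmoM2 and 102 and 117 in WT. Both groups were apart in both genes, and the WT samples differed from each other more than the SmoM2 samples did. Log2 differences were 0.71 ± 0.16 for Nrxn2 and 0.44 ± 0.10 for Nlgn2 (SE, limma), at adjusted p of 2.49e-08 and 0.00232 in the authors' deposited table. Nlgn1 and Lrrtm2, both of excitatory synapses, had log2 fold changes of -0.24 and -0.34 and did not pass. Whether the excitatory pair differs from the inhibitory gene was not tested, and Lrrtm2 is overlapped by Ctnna1 on the other strand.

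The Lrfn genes encode postsynaptic leucine-rich repeat proteins that recruit glutamate receptors or bind receptor phosphatases on the axon. 4 of the 5 annotated genes were listed, and Lrfn1, Lrfn3 and Lrfn4 rose by similar amounts, their log2 fold changes being 0.61, 0.64 and 0.66 in the authors' deposited table. Lrfn1 had 76.5 and 74.5 in SmoM2 and 43.7 and 52.2 in WT. Lrfn3 had 29.97 and 33.8 in SmoM2 and 21.1 and 17.5 in WT, and Lrfn4 had 60.2 and 58.0 in SmoM2 and 34.2 and 37.2 in WT. In each the groups were far apart for their spread. Lrfn2 had 21.8 and 22.8 in SmoM2 and 16.9 and 16.4 in WT, also apart, but its log2 fold change of 0.34 did not pass (adjusted p = 0.104). Lrfn1 and Lrfn4 are overlapped on the other strand by Samd4b and Pcx.

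All 4 teneurins, which bridge synapses by binding latrophilins, were higher. Tenm3, known for wiring hippocampal and visual circuits, rose, with 20.8 and 20.6 in SmoM2 and 12.4 and 11.2 in WT, which limma put at 0.76 ± 0.13 on the log2 scale (SE; adjusted p = 2.16e-07 in the authors' deposited table). Tenm1, Tenm2 and Tenm4 were higher by log2 fold changes of 0.26, 0.29 and 0.32 without passing. Flrt2, a ligand of latrophilins and of Unc5 receptors, fell, with 12.6 and 9.50 in SmoM2 and 12.3 and 14.9 in WT. The groups were not apart. For Flrt2 the limma log2 difference was -0.28, and became -0.47 without SmoM2 replicate 1, -0.10 without SmoM2 replicate 2 and -0.16 without WT replicate 2.

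The 3 Celsr genes encode large cadherins with a seven-pass membrane part that orient cells, cilia and axon tracts in a plane. Celsr3, which acts in axon tracts, had 8.03 and 7.78 in SmoM2 and 4.53 and 4.91 in WT, which limma put at 0.64 ± 0.16 on the log2 scale (SE), and rose. Celsr2, which acts in ependymal cilia and dendrites, rose as well, with 51.2 and 50.1 in SmoM2 and 29.1 and 41.3 in WT. The log2 difference of Celsr2 was 0.53, and 0.29 without WT replicate 1. Celsr1, of ependyma and progenitors, had 1.63 and 3.73 in SmoM2 and 0.92 and 0.77 in WT without passing. For Celsr1 the log2 ratio of the mean levels was 1.67 and the authors' log2 fold change 0.60, the widest gap among the 67, where the median excess of the ratio was 0.08.

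Integrins, paired receptors for the matrix, had 4 members above the floor out of 24 annotated genes, and 1 fell. Itga11, which lay under the floor and is not a member, rose (adjusted p = 0.0126 in the authors' deposited table). It had 0.42 and 0.37 in SmoM2 and 0.04 and 0.12 in WT. Itgb8, which with the alpha-v chain releases active TGF-beta in the brain, had 7.08 and 6.43 in SmoM2 and 8.09 and 10.7 in WT. Both SmoM2 samples lay below both WT samples, and limma gave -0.41 ± 0.18 on the log2 scale (SE; adjusted p = 0.000194 in the authors' deposited table), and -0.23 without WT replicate 2. Itgb5, another partner of alpha-v, was the most abundant, with 30.1 and 27.5 in SmoM2 and 23.6 and 20.7 in WT, and did not pass. The laminin receptor gene Itga7 and the platelet gene Itga2b were higher without passing. Itga2b had 3.57 and 1.52 in SmoM2 and 1.16 and 1.18 in WT, and SmoM2 replicate 1 stood apart. Of 7 blood markers, 6 were listed and fell, to sums of 65.6 and 120 in SmoM2 against 662 and 450 in WT.

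Matrix ligands of the integrins form the list with the most genes that rose among the partners. Of 25 matrix ligand genes 20 had a row, 16 rose and 1 fell, at a median log2 fold change of 0.76 by the authors' deposited table. In 6 of the 16 that rose, Lama1, Lama4, Lamc1, Col3a1, Col4a1 and Nid1, the groups overlapped, and 4 of the 16 are also meningeal markers. Col1a1 encodes a fibre-forming collagen chain and is also among the meningeal markers; it had 14.4 and 7.42 in SmoM2 and 2.34 and 2.03 in WT. Tnr, the tenascin of white matter, fell, with 21.8 and 21.4 in SmoM2 and 22.7 and 30.2 in WT. Endothelial and mural markers had 9 of 14 genes listed, of which 5 rose and 2 fell, and summed to 393 and 295 in SmoM2 and 327 and 268 in WT. The part of meningeal and vessel cells in these values was not tested. The limma log2 difference of Tnr was -0.27, and -0.46 without WT replicate 1 and -0.07 without WT replicate 2. Without SmoM2 replicate 1 the limma log2 difference moved by over 1.5 times in 9 of the 16 ligands that rose. It became 0.41 in place of 0.73 for Fn1, 0.22 in place of 0.70 for Col3a1, 0.44 in place of 0.98 for Spp1, 0.35 in place of 0.62 for Col4a1 and 0.45 in place of 0.76 for Col4a2. For the others it became 0.12 in place of 0.26 for Lama4, 0.0038 in place of 0.33 for Nid1, 0.05 in place of 0.60 for Lama1 and -0.07 in place of 0.16 for Lamc1, whose sign changed. Such moves numbered 6 without SmoM2 replicate 2, 4 without WT replicate 1 and 3 without WT replicate 2. Integrin adaptors and kinases had 9 of 21 genes with a row, 3 of which rose and 1 fell. Fermt1, a kindlin gene, had 0.89 and 0.47 in SmoM2 and 0.14 and 0.05 in WT, and Parva, which encodes parvin, fell with a log2 fold change of -0.37.

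On the cadherin side, 4 of 12 catenin and partner genes had a row, and Jup and Arvcf rose. Jup, the plakoglobin gene, had 36.7 and 35.1 in SmoM2 and 19.7 and 22.8 in WT. A list of 12 genes held atypical cadherins and related genes that are not cadherins, among them Fjx1. Of these 12 genes 7 had a row, all were higher and 5 rose: Fat1, Fat4, Dchs1, Fjx1 and Cdhr1. Fat4 and Dchs1 form a receptor and ligand pair, and their log2 fold changes were 0.79 and 0.70 in the authors' deposited table. Cdhr1, a protocadherin-like gene of olfactory bulb output neurons and photoreceptors, had 23.4 and 7.58 in SmoM2 and 4.64 and 4.07 in WT. Its limma log2 difference was 1.43, and 0.68 without SmoM2 replicate 1 and 2.19 without SmoM2 replicate 2. Cdhr1 is also among 19 markers of olfactory bulb and striatal neurons, which are not confined to interneurons. Of the 19 markers 14 had a row and 10 rose, 4 of these with overlapping groups. The striatal markers Drd1, Drd2 and Ppp1r1b had no row, nor did Dlx6 and Pde1c. The 14 summed to 370 and 243 in SmoM2 and 180 and 163 in WT. The part of such cells in the values of cadherins was not tested.

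Partners of synaptic adhesion went both ways. Of 28 genes 17 had a row, 5 rose and 4 fell, where 21.8% and 16.5% of listed genes above the floor did. Among those that rose were Ptprs and Ptprf, axonal receptor phosphatases that Lrfn and Lrrc4b proteins bind, and Lrrc4b itself. Their log2 fold changes were 0.42, 0.54 and 0.61 in the authors' deposited table. Ptprd, another receptor phosphatase of the list, was lower by a log2 fold change of -0.31 without passing. It had 40.3 and 36.1 in SmoM2 and 40.9 and 52.9 in WT. Cbln4, a secreted neurexin ligand, rose, with 9.39 and 10.3 in SmoM2 and 6.95 and 3.73 in WT, and its limma log2 difference of 0.82 was 0.45 without WT replicate 2. Mdga1 rose by the authors' test although its levels overlapped, at 14.6 and 14.6 in SmoM2 and 19.8 and 8.60 in WT. Its limma log2 difference of 0.14 was 0.70 without WT replicate 1 and -0.41 without WT replicate 2. Cbln2, Lgi1, Il1rap and Lrrc4c fell. The limma log2 difference of Cbln2 was -0.57, and -0.38 without SmoM2 replicate 2 and -0.37 without WT replicate 2. Of 23 other immunoglobulin adhesion genes 10 had a row, with 2 that rose and 3 that fell; Mog, a myelin gene, had 35.7 and 40.7 in SmoM2 and 103 and 101 in WT. Of 8 scaffold genes behind axonal adhesion molecules 2 had a row, and Sptbn4, a spectrin of nodes and initial segments, rose, with 59.1 and 58.0 in SmoM2 and 43.4 and 45.04 in WT.

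Leaving out a library in turn moved the log2 difference (limma) by over 1.5 times in 2 of the 25 genes that rose, Celsr2 and Cntn2. All 25 stayed positive, which was fixed in advance because their groups do not overlap. Of the 6 that fell, all 6 moved by over 1.5 times under some omission. Among these 6 a sign could change only in the 3 whose groups overlap, and it did in Cadm2. On the levels alone, limma gave an unadjusted p under 0.05 for 24 of the 25 genes that rose and for 0 of the 6 that fell, although the authors' test calls all 31. Both tests used the same samples, and the authors' p selected these genes. The limma count is therefore no separate support for the calls. Adjusted over the 57010 tests behind the authors' values, limma called 0 of the 67, with 34 at an unadjusted p under 0.05. The matching share of all listed genes was not counted. Because the authors selected the list by p, the count of 34 does not set the adhesion genes apart.

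**Figure D4:**
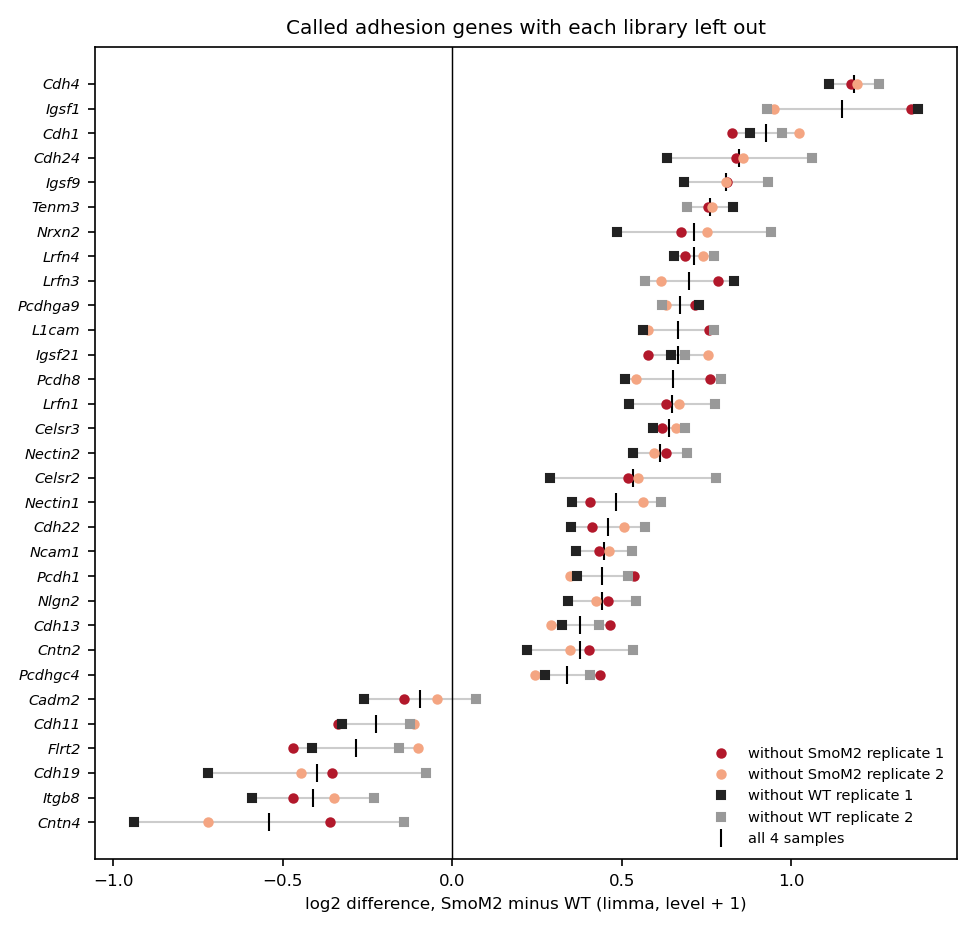
Limma log2 difference of SmoM2 minus WT (x axis, on log2(level + 1)) for the 31 adhesion genes that rose or fell, with all 4 samples (black bar) and with each library left out (coloured points). The 25 genes that rose stay right of 0, as they must because their groups do not overlap, and Cadm2 crosses 0 without WT replicate 2.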

How the data were processed

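RNA was measured in 4 samples of corpus callosum and cortex, 2 SmoM2 and 2 WT, from 1 ug of total RNA with a TruSeq kit, per the labels' protocols. RSEM, DESeq2 and GRCm38.p6 are named without roles, per the submitters' processing notes. The deposited table gives an expression level per sample (a length-scaled signal), a fold change as a ratio, the log2 of that ratio, and raw and adjusted p-values, all by the authors. The series text pairs its columns with the samples. It lists only genes with p up to 0.05, so it lacks the unselected genes. The adjusted p-value corresponds to 57010 tests.

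Calls rest on the authors' adjusted p, at 0.05 or less. limma 3.58.1 in R 4.3.3 was fitted with a mean-variance trend on log2(level + 1) over 5041 genes whose mean level reached 0.5, and was tested on simulated data. Its variance estimates come from a selected list. Members, families and lists were chosen with earlier results of these data known. Named were, per family, up to 3 called genes of largest fold without overlap and the gene of highest level, and per list of partners the called gene of largest fold without overlap; other genes were named after their values were seen. No fold of a list was tested as a set. Use of strand in counting is not stated, and 42 of the 67 genes overlap an annotated gene on the other strand, whose reads may be mixed in. Alternatives were other pseudocounts, floors, scalings and thresholds, omission of each library and a replicate block.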

Additional observations from a re-analysis of the deposited data

How the results depend on the processing

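The counts of genes that rose and fell, 25 and 6, rest on the authors' p-values, which cannot be recomputed from levels; under other pseudocounts, floors, scalings and omitted libraries only the direction of the levels was checked. At an adjusted p of at most 0.01 the counts were 16 and 3. With limma's adjusted p over 57010 tests they were 0 and 0, with 34 of the 67 at an unadjusted p under 0.05. Counts at an unadjusted limma p were made for the 67 only, in a list already selected by the authors' p. The median log2 difference of the 67 was 0.40, and 0.28 with a pseudocount of 5, 0.27 after quantile normalization and 0.30 with equal medians. Those 3 settings moved the median of all genes fitted by -0.10, -0.14 and -0.10, and under both scalings 51 of the 67 stayed higher. Omitting a library gave medians from 0.37 to 0.46, and from 50 to 53 genes higher by level.

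5 of the 67 genes changed sign under an omission. Across omissions the limma log2 difference ran from -0.26 to 0.070 for Cadm2, from -0.039 to 0.52 for Cntnap5b, from -0.43 to 0.19 for Pcdh20, from -0.35 to 0.20 for Pcdh7 and from -0.39 to 0.032 for Pcdh9. The cause was not tested. Nothing in the labels says that equal replicate numbers share an animal or a day, and the deviations of same-numbered samples had a correlation of -0.08 over 5041 genes. In the balanced design a replicate block leaves the median log2 difference at 0.40 by construction; limma then called 0 of the 67 after adjustment, with 31 at an unadjusted p under 0.05, and 20 of all 5041 genes against 1 without the block. Depth per sample is unknown, and 2 samples a group limit the precision of every value.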
